A study of Mus musculus with 8 samples.

Results

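Mature neutrophils were described in a pooled single-cell table of lung cells. The pups were wild-type C57BL6/J mice. The cells were chosen by a rule on unique molecular identifiers (UMIs, each a captured transcript molecule). A cell was a member if S100a8 and S100a9 together gave at least 1% of its UMIs, Csf3r, Il1r2 and Cxcr2 together at least 2 UMIs, Ngp, Camp and Ltf together fewer than 10, and F13a1 and Cdh5 none. The rule found 379 of 11806 cells, or 3.21% (exact binomial 95% interval 2.90 to 3.54, counting error only). The rule chose the cells on the counts that are described here, so every level and ratio against other cells is a description and carries no test.

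All pups had received lipopolysaccharide, a bacterial cell wall component, in the womb at day 14 of gestation. From birth 1 group of 4 libraries was kept in air (21% oxygen) and the other, also of 4 libraries, in 65% oxygen, which models bronchopulmonary dysplasia, a chronic disorder of preterm lungs. At 5 days of age the lungs were collected and cryopreserved. Thawed cells were flow-sorted into immune, epithelial and endothelial fractions, so the shares of cell types also carry the freezing and the sort. The column names matched 0 of the 8 libraries. Hyperoxia and air were therefore not compared, and every value covers both groups together. The table is read as 1 pooled sample whose columns fall into 8 runs of barcodes, in which the alphabetical order of the barcodes starts anew. A run has no known library or oxygen group, is no replicate, and is given singly. Of all barcodes, 12 occurred in more than 1 run, and 0 of them belonged to a mature neutrophil.

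Neutrophils are short-lived phagocytes made in the bone marrow. As they mature there they fill granules in order: azurophil granules with myeloperoxidase and elastase, specific granules with lactoferrin and cathelicidin, and last gelatinase granules with matrix metalloproteinases. The transcripts of the early granule proteins are lost before the cell leaves the marrow, and the receptors for granulocyte colony-stimulating factor and for CXC chemokines, which release and guide the cell, are gained. In the lung, neutrophils wait in the capillaries and enter the tissue in inflammation, where they release interleukin 1, chemokines and proteases. Stefins are small inhibitors of cysteine proteases, and in the mouse a cluster of stefin genes is expressed strongly in neutrophils.

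The promoters of 4 genes high in the mature neutrophils are printed because the same genes carry the comparisons that follow. They are a stefin outside the rule with a high ratio to all other cells (Csta3), another stefin of the same cluster (Stfa2l1), a granulocyte hormone that split the mature neutrophils among themselves (Retnlg), and a chemokine receptor of the rule (Cxcr2). Each is the stretch of 250 bases before the start listed in RefSeq, mouse build GRCm38.p6, read 5′ to 3′ on the strand of the gene, here always the plus strand. The positions are chr16:36210153-36210402 for Csta3, chr16:36156561-36156810 for Stfa2l1, chr16:48872358-48872607 for Retnlg and chr1:74153744-74153993 for Cxcr2. Capitals mark a match on either strand to TTGCNNAA, the letters of a C/EBP-type motif, or to GAGGAA, the letters of a PU.1-type motif. C/EBP factors and PU.1 are the transcription factors of the granulocyte line, and the motifs share no bases here.
Csta3: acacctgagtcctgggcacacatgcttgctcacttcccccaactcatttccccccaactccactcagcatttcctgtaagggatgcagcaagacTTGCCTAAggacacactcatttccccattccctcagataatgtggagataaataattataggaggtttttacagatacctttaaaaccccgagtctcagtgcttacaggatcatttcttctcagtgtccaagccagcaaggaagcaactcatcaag
Stfa2l1: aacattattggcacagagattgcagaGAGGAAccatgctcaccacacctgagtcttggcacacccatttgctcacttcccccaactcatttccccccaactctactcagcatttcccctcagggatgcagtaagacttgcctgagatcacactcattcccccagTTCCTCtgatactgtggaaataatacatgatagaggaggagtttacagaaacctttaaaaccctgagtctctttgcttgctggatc
Retnlg: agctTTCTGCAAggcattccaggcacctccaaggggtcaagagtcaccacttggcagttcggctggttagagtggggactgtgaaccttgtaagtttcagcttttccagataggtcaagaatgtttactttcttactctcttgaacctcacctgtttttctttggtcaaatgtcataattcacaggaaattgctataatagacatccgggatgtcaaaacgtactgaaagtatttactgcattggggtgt
Cxcr2: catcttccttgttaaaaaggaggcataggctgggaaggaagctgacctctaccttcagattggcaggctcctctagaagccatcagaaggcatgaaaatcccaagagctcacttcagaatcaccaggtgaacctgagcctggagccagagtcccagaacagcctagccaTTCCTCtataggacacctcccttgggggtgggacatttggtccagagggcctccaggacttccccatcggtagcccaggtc

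In these windows Csta3 and Retnlg each held 1 match to TTGCNNAA and 0 to GAGGAA. Stfa2l1 held 2 matches to GAGGAA and Cxcr2 1, and neither held one to TTGCNNAA. TTGCNNAA lay in 15.2% of the 164 genes at least 4-fold higher in mature neutrophils that had a listed promoter (25 genes). It lay in 7.62% of the 5732 listed genes used in the comparison and in 9.56% of all 27018 listed promoters. GAGGAA lay in 40.9% of the 164 (67 genes), against 23.8% and 23.1%, and in 26.4% of the 681 genes at least 4-fold lower. A match is a string of letters and no shown binding site, and some stefin promoters of the cluster are alike. Stfa2l1 and Stfa2 were identical at 89.4% of aligned positions, Stfa1 and Cstdc5 at 81.2%, and Csta3 differed more, at 52.2 to 60.4% with each of these 4, beside 46.3% with Cxcr2 and 44.6% with Retnlg. The stefin cluster held 10 genes within 335447 bases of chromosome 16 (chr16:36119946-36455392).

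The mature neutrophils were spread unevenly over the runs. Run 1 held 225 of its 1570 cells (14.3%, 12.6 to 16.2), run 2 20 of 282 (7.09%, 4.39 to 10.7), run 8 19 of 335 (5.67%, 3.45 to 8.72) and run 6 78 of 1712 (4.56%, 3.62 to 5.65). Runs 7 and 3 held 0.835% and 0.699%, with 28 and 7 cells, and runs 4 and 5 held 1 cell each, 0.0601% of 1663 and 0.0530% of 1887. Run 1 alone therefore gave most of the members, and without it the share was 1.50% (1.28 to 1.76). Values per run are given for runs 1, 2, 6 and 7, which had at least 20 members.

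**Figure D1:**
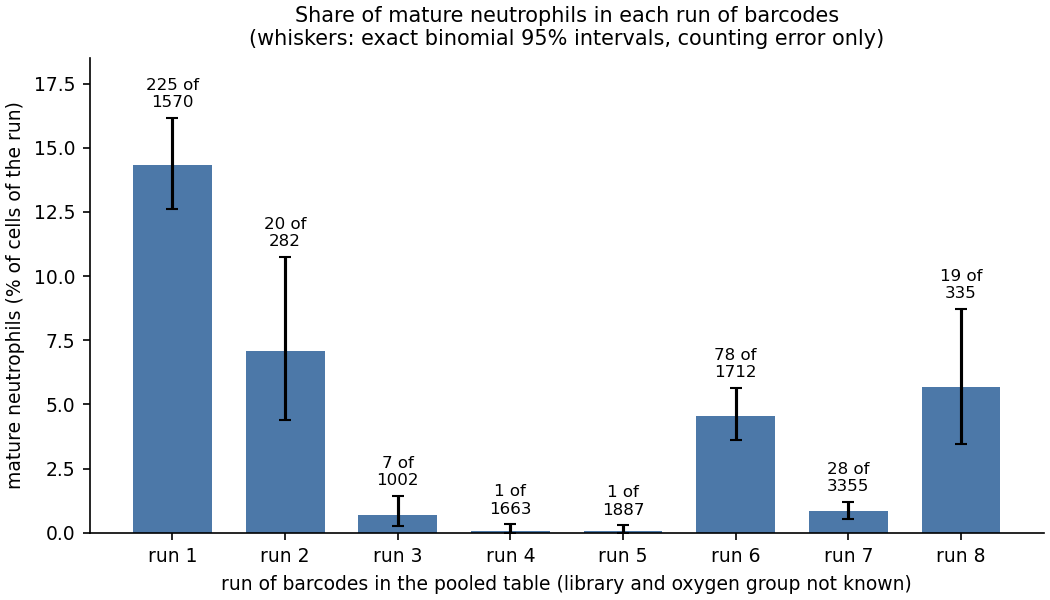
Bars give the share of mature neutrophils among the cells of each of the 8 runs of barcodes, in percent, with exact binomial 95% intervals and the counts above. Run 1 reached 14.3%, while runs 4 and 5 held 1 cell each.

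The members had a median of 4719 UMIs (1206 to 21431) and 1785 genes (802 to 4736) per cell. Their median mitochondrial share was 0.927%, against 2.14% in all other cells, whose median was 4407 UMIs. The deposited table holds no cell under 800 genes, and 34 members (8.97%) had under 1000 genes, so cells poorer in transcripts are not in the table. Depth differed between the runs: the median of the members was 5366 UMIs in run 1, 4844 in run 2, 4569.5 in run 6 and 2474.5 in run 7.

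Within the rule, S100a8 and S100a9 made up a median of 6.29% of a member's UMIs, from 1.00 to 29.4%. A UMI of Csf3r was found in 360 members, of Il1r2 in 300 (79.2%), of Cxcr2 in 279 (73.6%) and of all 3 receptors in 204 (53.8%). Csta3, a given marker that the rule did not use, was found in 294 (77.6%). UMIs of Ngp, Camp and Ltf were at 0 in 306 members, at 1 to 3 in 67 and at 4 to 9 in 6. The edge of the rule runs through a continuum: the 16 members with an S100a8 and S100a9 share under 1.2% and the 19 cells that failed only this criterion with a share of at least 0.8% held Csta3 at 167 and 370 CPM (UMIs of a gene in 1000000 UMIs of the cells summed). Cxcr2 was at 333 and 222 CPM in the same sets, and Csf1r, the macrophage colony-stimulating factor receptor of monocytes, at 400 and 190 CPM.

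Over all runs, all 10 genes of the neutrophil marker list were at least 4-fold higher in the members. The list includes S100a8, S100a9, Csf3r, Il1r2 and Cxcr2, which are genes of the rule. The level of Ly6g, the surface antigen by which mouse neutrophils are usually sorted, was low: it had a UMI in 17 members (4.49%) and stood at 32.2 CPM. Ly6g was 6.23-fold higher over all runs and 3.76-fold without run 1, which is under 4-fold. A single member of run 1 had 17004 UMIs and at least 1% of them from surfactant genes, and it was also the only member among 193 cells with the highest doublet scores. Among the 379 it alone gave nearly all UMIs of Sftpc, the surfactant protein C gene of alveolar type 2 cells, 3465 in that cell.

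Against all other cells, 7154 genes reached 20 CPM on at least one side. Of these, 221 (3.09%) were at least 4-fold higher in mature neutrophils and 888 (12.4%) at least 4-fold lower, and the median log2 ratio was -0.28. Among genes of at least 100 CPM, Csta3, Asprv1 and Cxcr2 had the highest ratios and Ccl5 and Ptprm the lowest. The other cells include 98 cells of the same line that were rich in granule transcripts, 54 of them in run 1. Many ratios were higher without run 1 for neutrophil genes, and the value without a run is given wherever it moved a ratio by more than 1.5 times. Intervals of ratios are exact binomial 95% intervals and cover counting error only. PCR copies were removed by the UMIs, but cells of 1 run share a library preparation.

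Taking the 98 cells out of the other cells raised the ratios of genes that they share with the members. Retnlg then had a ratio of 473 in place of 25.4, Stfa2 of 233 in place of 17.9, Cstdc5 of 193 in place of 13.6 and S100a9 of 127 in place of 22.2. Olfm4 had 122 in place of 12.3, Asprv1 172 in place of 58.0, Csta3 101 in place of 58.6 and Mmp9 82.6 in place of 22.6. The sizes of these ratios therefore depend on which cells stand on the other side, while their direction was the same. The sign turned for Ngp, Camp and Ltf, which the rule held low. As a median of ratios within runs, Retnlg had 157 and Csta3 237, while Csf1 had 15.9 and Egr3 6.90 in place of 26.7 and 24.4.

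**Figure D2:**
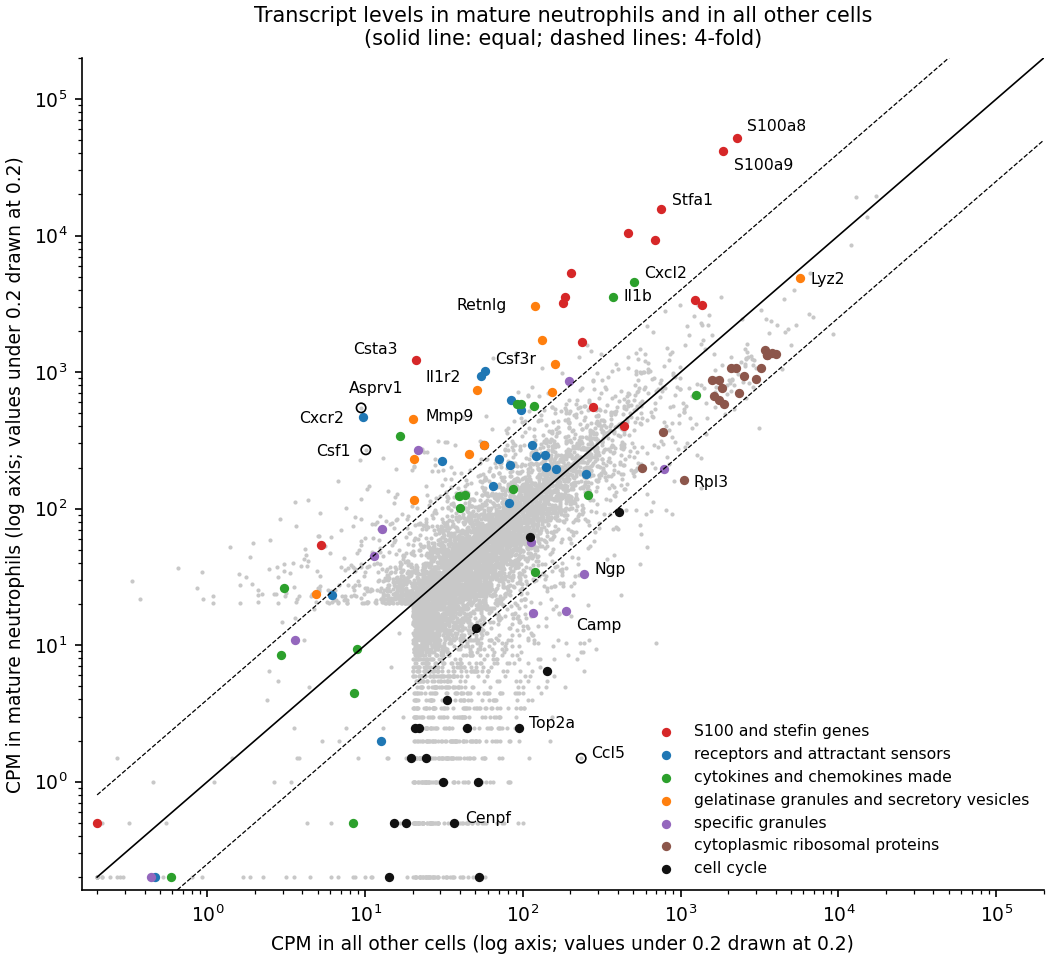
Each point is a gene used or listed, with its CPM in all other cells (horizontal) and in the 379 mature neutrophils (vertical), both on log axes, and colours mark gene lists. S100a8, S100a9 and the stefins lie far above the upper 4-fold line, ribosomal protein genes lie below the line of equality, and cell cycle genes lie at the bottom.

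Receptors and attractant sensors, through which neutrophils are released and guided, were higher as a list: 7 of 18 genes used were at least 4-fold higher, 0 at least 4-fold lower, and the median log2 ratio was 1.53. Of these 7, 3 are in the rule. Cxcr2, the receptor for neutrophil-attracting CXC chemokines (chr1:74153989-74161246), was at 396, 920, 599 and 501 CPM in runs 1, 2, 6 and 7. All other cells held 9.72 CPM, a ratio of 48.2 (43.8 to 53.2), or 94.5 without run 1. Csf3r, the receptor for granulocyte colony-stimulating factor (chr4:126024550-126044440), was at 915, 1489, 1376 and 1051 CPM against 57.3 CPM. Il1r2, the decoy receptor that binds interleukin 1 without signalling (chr1:40074079-40125231), was at 877, 1632, 857 and 1277 CPM against 54.5 CPM, a ratio of 17.2 and of 26.6 without run 1. These 3 are genes of the rule, and each was lowest in run 1 or run 6 and highest in run 2. Among genes that the rule did not use, Ccr1, a receptor for inflammatory CC chemokines, was at 621 against 83.9 CPM (7.40-fold, 6.96 to 7.87). Il1rap, the shared subunit of interleukin 1 receptors, was at 223 against 30.6 CPM (7.27-fold). C5ar1, the complement C5a receptor, was 5.46-fold higher, and Fpr1, the receptor for bacterial formyl peptides, 5.14-fold. Cxcr1 had no UMI in the members, which allows up to 3 UMIs of the 2021612 counted. Ifngr1, the interferon gamma receptor, and Tnfrsf1b, a tumour necrosis factor receptor, were at 179 and 194 CPM against 251 and 161 CPM in all other cells.

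Pattern recognition and Fc receptors, which sense microbes and antibody, were also higher on balance, with 6 of 17 genes used at least 4-fold higher, 0 at least 4-fold lower and a median log2 ratio of 1.71. Trem1, an amplifier of inflammatory signals, was at 512, 588, 377 and 363 CPM in runs 1, 2, 6 and 7 and at 58.7 CPM in all other cells (8.14-fold, 7.59 to 8.73). Clec4d, a C-type lectin of phagocytes, was at 1068 against 133 CPM (8.05-fold). Clec5a was 6.52-fold higher, and Nlrp3, the sensor of an inflammasome that matures interleukin 1 beta, 6.24-fold, with 653, 1167, 602 and 638 CPM in the 4 runs. Cd14, the co-receptor for lipopolysaccharide, was at 998 CPM in run 1 and at 228, 583 and 225 CPM in runs 2, 6 and 7. Lipopolysaccharide had been given in the womb to both groups. Fcgr2b and Fcgr4, an inhibitory and an activating Fc receptor, were near equal, at 75.2 and 70.7 CPM against 92.2 and 77.2 CPM.

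Granule genes differed by the granule they belong to. Of the 6 azurophil granule genes, 0 reached 20 CPM, and Mpo, Elane, Ctsg, Ms4a3 and Bpi had no UMI in any member. Of 9 specific granule genes used, 3 were at least 4-fold higher and 4 at least 4-fold lower, the latter being Cybb and Ngp, Camp and Ltf, which the rule held low. The 3 higher genes were Olfm4, Lcn2 and Cd177, so outside the rule the specific granule list was mixed. Of 12 gelatinase granule and secretory vesicle genes, 11 were at least 4-fold higher, with a median log2 ratio of 2.68. The exception was Lyz2, lysozyme, which macrophages also express strongly, at 4901 against 5699 CPM.

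In the gelatinase list, Mmp9, the gelatinase itself, was at 418, 1148, 336 and 1026 CPM in runs 1, 2, 6 and 7, against 20.2 CPM in all other cells (22.6-fold, 20.8 to 24.5, and 84.5-fold without run 1). Retnlg, a resistin-like hormone of granulocytes, was at 3640, 4146, 408 and 6158 CPM against 120 CPM (25.4-fold, 61.4 without run 1). Run 6 was the lowest of the 4 for both. Slpi, an inhibitor of neutrophil serine proteases, was at 739 against 51.4 CPM (14.4-fold), and Wfdc21 at 1722 against 132 CPM. Arg2, the mitochondrial arginase, was 11.3-fold higher and 18.6-fold without run 1. Pglyrp1, a peptidoglycan-binding protein, was 7.14-fold higher, and Hp, haptoglobin, 4.67-fold. Among the specific granule genes, Olfm4, which is held by only a subset of neutrophils, had a UMI in 33.2% of the members and stood at 267 against 21.7 CPM (12.3-fold, 32.9 without run 1). Lcn2, which binds bacterial iron carriers, was at 1140, 247, 217 and 526 CPM in the 4 runs against 195 CPM (4.42-fold, 2.82 without run 1).

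S100 and stefin genes summed to 151363 CPM in the members and 10155 CPM in all other cells, of which S100a8 and S100a9, in the rule, gave 52095 and 41389 CPM in members. Of 15 genes used, 11 were at least 4-fold higher and 0 at least 4-fold lower, with a median log2 ratio of 4.16. S100a8, a partner of S100a9 in calprotectin and in the rule, was at 57727, 32664, 40996 and 56322 CPM in runs 1, 2, 6 and 7 against 2266 CPM in all other cells (23.0-fold, 43.2 without run 1). S100a9, also in the rule, was 22.2-fold higher and 51.9-fold without run 1. Csta3, which the rule did not use, was at 1193, 1679, 1234 and 1702 CPM, close over the 4 runs, against 20.9 CPM (58.6-fold, 55.0 to 62.4, and 156 without run 1). Stfa1 was at 16685, 19980, 9966 and 21415 CPM (20.8-fold, 45.0 without run 1), and Stfa2l1 at 5322 against 200 CPM (26.5-fold, 60.4 without run 1). Cstdc4, Csta2, Stfa2 and Cstdc5 were 22.7, 19.3, 17.9 and 13.6-fold higher, and 52.7, 38.0, 41.4 and 26.9-fold without run 1. Stfa3 was 7.12-fold higher. Cstb, the stefin that most tissues express, was at 400 against 438 CPM. Levels of single stefins other than Csta3 and Stfa3 are uncertain: in Cstdc5, 66.1% of the 50-base windows in the last 300 bases occur in another gene's transcript, in Stfa1 51.0%, and 0 in Csta3 and Stfa3.

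Genes outside the lists also led the ratio to all other cells. Asprv1, a retroviral-like aspartic protease, was at 562, 569, 475 and 889 CPM in runs 1, 2, 6 and 7 against 9.43 CPM (58.0-fold, 52.8 to 63.9, and 137 without run 1). Mirt2, a long noncoding RNA induced by lipopolysaccharide, was at 111 against 3.60 CPM (30.9-fold, 57.3 without run 1). Csf1, the macrophage colony-stimulating factor, was at 267, 56.9, 434 and 25.0 CPM in the 4 runs against 10.1 CPM (26.7-fold, 44.6 without run 1), so that runs 1 and 6 were high and runs 2 and 7 low. Egr3, an activation-induced transcription factor, was split in the same way, with 241, 19.0, 271 and 25.0 CPM against 9.29 CPM (24.4-fold). Ceacam10 was 26.3-fold higher, and Il1f9, interleukin 36 gamma, 23.6-fold, with 81.0 without run 1. Egr3 and Csf1 were thus carried by the runs with most members.

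**Figure D3:**
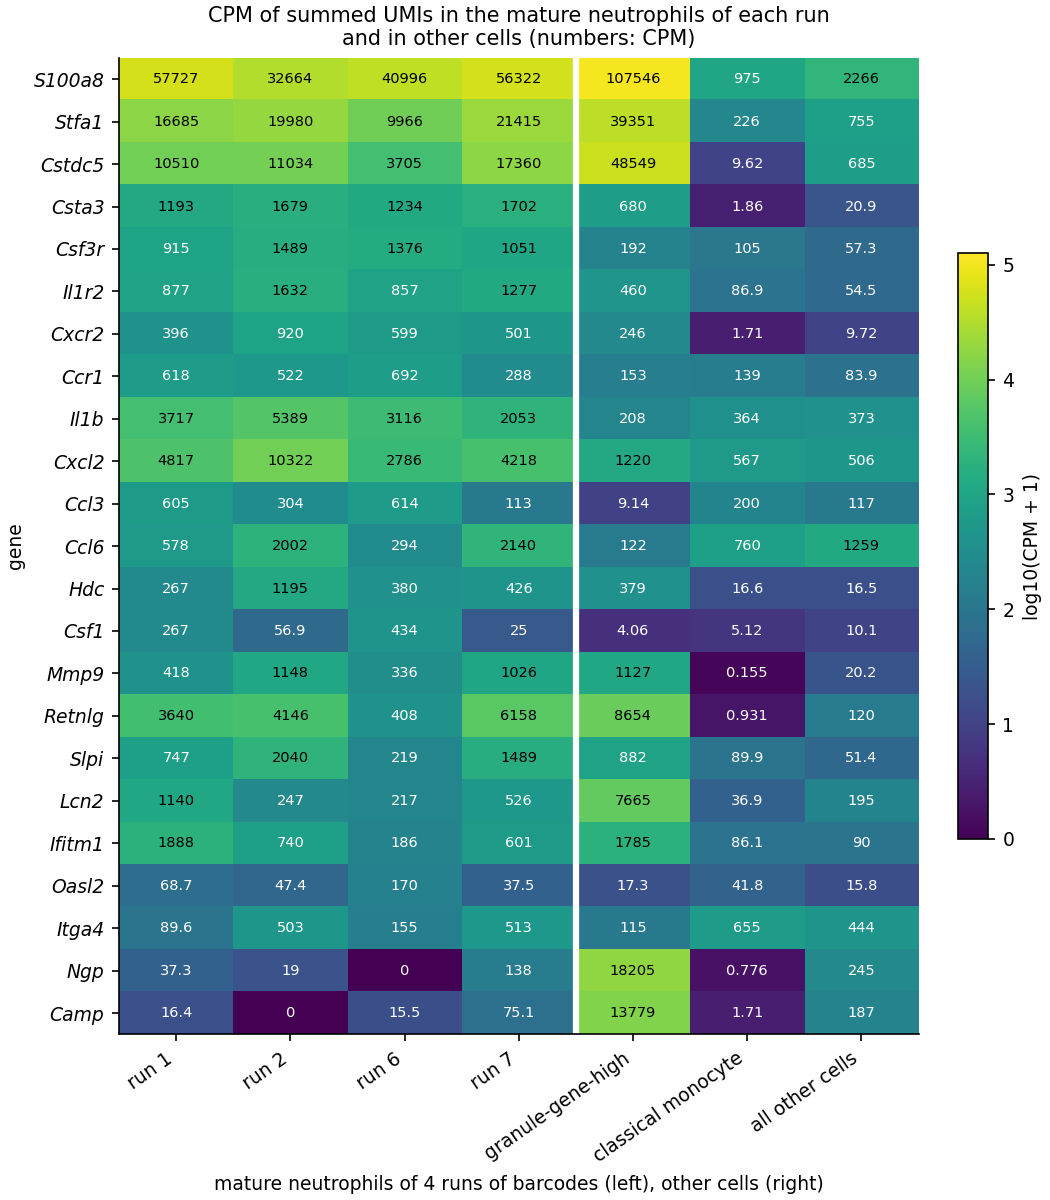
Each cell of the grid gives the CPM of a gene in the mature neutrophils of runs 1, 2, 6 and 7 and, to the right of the white bar, in granule-gene-high cells, classical monocyte-rule cells and all other cells, with colour for log10(CPM + 1). Csta3, Csf3r and Il1b were high in all 4 runs, while Retnlg was at 408 in run 6 and Csf1 at 25.0 in run 7.

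Cytokine and chemokine transcripts formed a second strong group, with 7 of 14 genes used at least 4-fold higher, 0 at least 4-fold lower and a median log2 ratio of 1.97. Il1b, the precursor of interleukin 1 beta, had a UMI in 92.3% of the members and stood at 3717, 5389, 3116 and 2053 CPM in runs 1, 2, 6 and 7 against 373 CPM in all other cells (9.58-fold, 9.34 to 9.83). Cxcl2, a ligand of Cxcr2, had a UMI in 73.6% and stood at 4817, 10322, 2786 and 4218 CPM against 506 CPM (9.05-fold). Both were highest in run 2, which had 20 members. Il1rn, the natural antagonist of interleukin 1, was at 581 against 92.2 CPM (6.30-fold), and Osm, oncostatin M, at 584 against 97.6 CPM (5.98-fold). Ccl3, a ligand of Ccr1, was at 605, 304, 614 and 113 CPM against 117 CPM (4.85-fold), so run 7 lay at the level of the other cells. Hdc, the enzyme that makes histamine, was at 267, 1195, 380 and 426 CPM against 16.5 CPM (20.5-fold, 39.3 without run 1). Tnfsf14 was 8.51-fold higher at a level of 26.2 CPM. Lower than in all other cells were Tgfb1 at 125 against 260 CPM and Ccl9 at 34.1 against 120 CPM (3.51 times lower). Ccl6 was at 2002 and 2140 CPM in runs 2 and 7 and at 578 and 294 CPM in runs 1 and 6, around the 1259 CPM of all other cells.

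The NADPH oxidase, which makes the oxidative burst, was spread on both sides, with 0 of 8 genes at least 4-fold higher and 1 at least 4-fold lower, beside 3.09% and 12.4% of all genes used, and with a median log2 ratio of 0.61. Ncf1, a cytosolic subunit, was at 387 against 109 CPM (3.54-fold), and Ncf4, another, at 338 against 118 CPM. Cybb, the membrane subunit, was at 194 against 781 CPM (4.03 times lower, 3.64 to 4.46), and the 4 runs lay at 191, 85.4, 191 and 313 CPM, all below the other cells. Hvcn1, the proton channel, was at 13.4 against 42.9 CPM.

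Adhesion genes were near the background, with 1 of 16 at least 4-fold higher, 1 at least 4-fold lower and a median log2 ratio of 0.09. Itga4, an integrin subunit, was split between the runs, at 89.6 and 155 CPM in runs 1 and 6 and at 503 and 513 CPM in runs 2 and 7, against 444 CPM (3.20 times lower, and 2.02 without run 1). Itgam, the Mac-1 alpha chain, was at 577, 389, 653 and 526 CPM, 3.09-fold above the 188 CPM of all other cells. Pecam1, an adhesion molecule also of endothelium, was at 10.4 against 77.5 CPM.

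Of 14 genes listed for ageing and tissue residence, 4 were at least 4-fold higher and 0 at least 4-fold lower, with a median log2 ratio of 0.81. Cxcr4, which returns aged neutrophils to the marrow and is high on lung-resident cells, was at 214, 275, 176 and 250 CPM in runs 1, 2, 6 and 7, above the 83.3 CPM of all other cells in each (2.50-fold). Ccrl2, a chemerin-binding receptor, was 7.62-fold higher. Siglecf, an eosinophil and alveolar macrophage lectin that some tissue neutrophils also gain, had a UMI in 24.5% of the members and stood at 94.8, 28.5, 51.6 and 25.0 CPM in the 4 runs against 14.3 CPM (5.35-fold, and 2.60 without run 1). Ctsb, cathepsin B, was at 216 against 662 CPM.

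Among lineage transcription factors, 2 of 15 genes used were at least 4-fold higher and 2 at least 4-fold lower, with a median log2 ratio of 0.75. Mxd1, a factor that opposes MYC and is gained in late granulocyte maturation, was at 450, 465, 483 and 526 CPM in runs 1, 2, 6 and 7, nearly equal in the 4, against 41.8 CPM (11.2-fold, 10.4 to 12.0). Cebpe, the factor of specific granule formation, was at 62.3 against 6.08 CPM (10.3-fold, 8.35 to 12.5). Irf8, which directs cells to the monocyte and dendritic lines, was at 11.9 against 114 CPM (9.64 times lower, 6.47 to 15.1), and Cebpa, an early factor, at 11.4 against 67.2 CPM (5.91 times lower). Spi1, the gene of PU.1, was at 578 against 343 CPM, and Cebpb at 2223 against 1372 CPM.

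Survival and cell death genes had a median log2 ratio of 0.87, beside -0.28 for all genes used, and 13 of 17 lay above 0. Their counts past 4-fold lay near the share over all genes used (3.09% higher and 12.4% lower). Of the 17, 1 was at least 4-fold higher, the antiproliferative Btg2 (1353 against 311 CPM, 4.35-fold), and 1 was at least 4-fold lower. That gene was Bcl2, at 3.96 against 66.8 CPM (16.9 times lower, 7.84 without run 1 and 50.9 without run 6). Mcl1, the antiapoptotic protein on which neutrophils depend, was at 1290, 2173, 1064 and 1252 CPM against 466 CPM (2.77-fold). Bcl2l1 was at 132 against 44.5 CPM and the proapoptotic Bax at 75.2 against 160 CPM. Bcl2a1b was at 703 against 312 CPM, but 79.2% of its 50-base windows occur in a near-identical copy, so the counts of Bcl2a1a, Bcl2a1b and Bcl2a1d cannot be told apart with certainty. Padi4, the enzyme that citrullinates histones when extracellular traps form, was at 50.9 against 4.13 CPM (12.3-fold, 25.0 without run 1), and Lmnb1, lamin B1, at 776 against 113 CPM (6.84-fold). Together 2 of 7 trap and chromatin genes used were at least 4-fold higher and 0 at least 4-fold lower, with a median log2 ratio of 1.16.

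Of 8 leukotriene and prostaglandin genes used, 2 were at least 4-fold higher and 0 at least 4-fold lower, beside 3.09% and 12.4% of all genes used. The median log2 ratio was 1.10. Ptgs2, inducible cyclooxygenase, was at 310, 588, 240 and 350 CPM in runs 1, 2, 6 and 7 against 32.3 CPM (9.58-fold), and Alox5, the first enzyme of leukotriene synthesis, at 125 against 24.6 CPM (5.08-fold). Lta4h and Pla2g4a were below the other cells, at 27.7 and 26.2 CPM against 51.9 and 48.5 CPM. In the iron and haem list 3 of 10 were at least 4-fold higher and 0 at least 4-fold lower, with a median log2 ratio of 0.46. The 3 were Lcn2, the iron exporter Slc40a1 (74.2 against 8.41 CPM, 8.82-fold) and the metalloreductase Steap4 (22.8 against 1.08 CPM, 21.1-fold, 11.1 without run 1). Hmox1, haem oxygenase, was at 56.4 against 92.4 CPM, and at 15.5 and 0 CPM in runs 6 and 7, 1.64 times lower over all and 3.47 times without run 1.

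Interferon response genes did not form a common shift: 2 of 14 genes used were at least 4-fold higher, 0 at least 4-fold lower, and the median log2 ratio was 0.14. Ifitm1, an interferon-induced membrane protein, was at 1888, 740, 186 and 601 CPM in runs 1, 2, 6 and 7 against 90.0 CPM (15.5-fold, 8.71 without run 1). Oasl2, an interferon-induced antiviral protein, showed another order, 68.7, 47.4, 170 and 37.5 CPM against 15.8 CPM (5.20-fold). Isg15 was at 58.2, 37.9, 129 and 0 CPM in the same runs. Oasl2 and Isg15 were therefore highest in run 6, where Ifitm1 was lowest.

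Metabolic lists lay on different sides. Of 22 glycolysis and oxygen-sensing genes, 2 were at least 4-fold higher and 18 lay above 0 on the log2 scale, with a median of 0.46. Egln3, an oxygen-dependent prolyl hydroxylase, was at 41.6 against 4.37 CPM (9.50-fold, 7.38 to 12.1), and Ankrd37, a hypoxia-induced gene, at 27.7 against 6.79 CPM (4.08-fold). All 20 mitochondrial respiration genes lay below 0, with a median of -0.67 and none past 4-fold: Ndufa4 was at 124 against 386 CPM and Cox5a at 164 against 422 CPM. All 20 ribosomal protein genes lay below 0 as well, with a median of -1.42: Rpl3 was at 161 against 1043 CPM (6.46 times lower) and Rpl32 at 897 against 3008 CPM. These medians stand beside -0.28 for all genes used. The S100 and stefin list took 151363 CPM in the same cells, and its part in these medians was not tested. With a total that left out S100a8 and S100a9, 0 of 19 list medians moved past the limit set for alternatives.

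Among the functional lists, that is, leaving out cell type markers, cell cycle genes had the lowest median, with 12 of 14 genes used at least 4-fold lower, 0 higher and a median log2 ratio of -4.10. Top2a, a topoisomerase of dividing cells, was at 2.47 against 93.9 CPM, 38.0 times lower (16.3 to 117) and 25.1 times without run 1. Stmn1 was at 6.43 against 142 CPM (22.0 times lower). Pcna, the replication clamp, was at 61.8 against 110 CPM and Mki67 at 13.4 against 50.8 CPM (3.80 times lower, and 2.53 without run 1), the only 2 of the 14 that stayed within 4-fold.

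**Figure D4:**
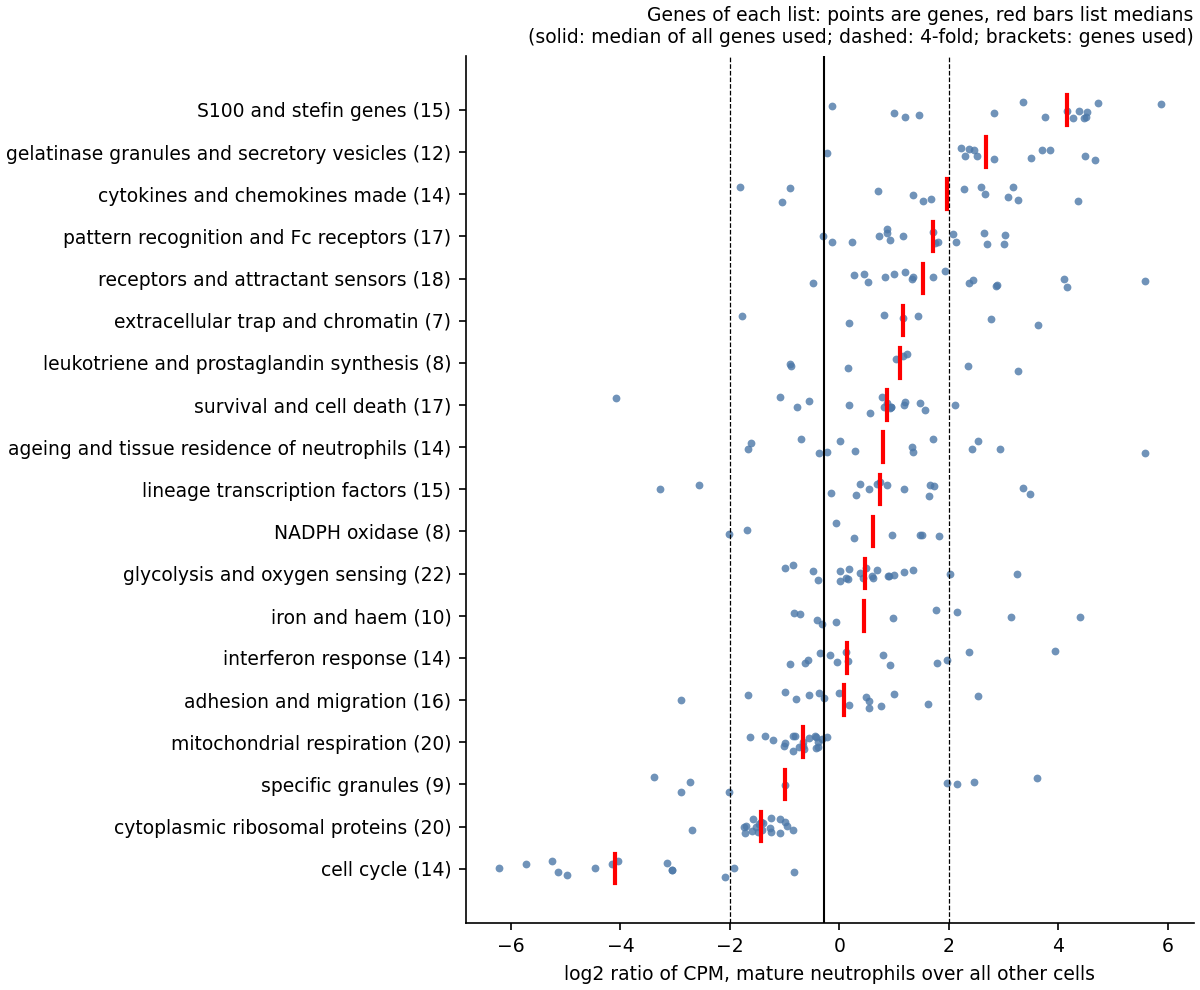
Points are the genes used of each list, placed by the log2 ratio of CPM in mature neutrophils over all other cells; red bars are list medians, the solid line is the median of all genes used (-0.28) and dashed lines mark 4-fold. Among these functional lists, S100 and stefin genes had the highest median (4.16) and cell cycle genes the lowest (-4.10).

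The genes with the lowest ratios among those of at least 100 CPM in all other cells belonged to other cell types. Ccl5 and Gzma, of T and natural killer cells, were at 1.48 CPM each against 234 and 110 CPM (158 times lower, 53.9 to 765, and 73.9 times, 25.3 to 358, 44.0 without run 1). H2-Aa, an MHC class II chain, was at 9.40 against 291 CPM (31.0 times lower, 14.5 without run 1 and 68.9 without run 6), and C1qb, a complement subunit of macrophages, at 3.46 against 102 CPM (29.5 times lower, 14.2 without run 1 and 49.1 without run 6). Axl was 51.2 times lower, or 27.7 without run 1, and Ptprm, of endothelium, 75.5 times lower, or 32.0 without run 1 and 202 without run 6. Dppa5a was at 10.4 against 694 CPM, 66.8 times lower, with 35.7 without run 1 and 193 without run 6.

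Most marker lists of other cell types summed lower in members than in all other cells. The T and natural killer list summed to 10.9 CPM in members and 408 CPM in all other cells, the B list to 3.96 and 85.2 CPM, the endothelial list to 13.4 and 310 CPM, and the interstitial macrophage list to 525 and 2644 CPM. The classical monocyte list summed to 389 against 1519 CPM, and 10.3% of members had at least 5 of its UMIs. The nonclassical monocyte list was close in its sum only, at 1046 against 1163 CPM, with at least 5 UMIs in 44.3% of members. Its sums were 1016, 1452, 839 and 1377 CPM in runs 1, 2, 6 and 7. Of its 7 genes used, 1 lay above 0 on the log2 scale and 6 below, 3 of them at least 4-fold lower. The median log2 ratio was -1.68. Sums were higher in members for the eosinophil list (82.1 against 18.4 CPM) and for the basophil and mast list (339 against 22.0 CPM). In the eosinophil list 5 of 7 genes had no UMI, and Siglecf gave 76.7 CPM of the sum. Likewise 6 of 8 basophil and mast genes had none, and Hdc gave 338 CPM. The epithelial list summed to 2977 CPM in run 1, which held the cell with 3465 Sftpc UMIs, and to 75.1 to 351 CPM in runs 2, 6 and 7. The part of these transcripts in the ratios was not tested.

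RNA free in the suspension adds UMIs to droplets of other cells, so detection was also read in cell types that should lack the genes, after every cell was thinned to 1500 UMIs (5 members were too shallow). A UMI of Csta3 was then found in 62.0% of members and in 0% of endothelial-rule cells (at least 5 UMIs of Cdh5, Pecam1 and Cldn5, none of Ptprc) and B-rule cells (at least 3 of Cd79a, Cd79b and Ms4a1), of Cxcr2 in 42.0%, 0% and 0%, and of Mmp9 in 34.5%, 0% and 0%. Il1b was found in 84.8%, 0.851% and 5.95%, Csf3r in 74.3%, 0.638% and 1.08%, Hdc in 30.7%, 0.426% and 0%, and S100a8 in 100%, 2.13% and 5.41%. S100a8, Csf3r and Cxcr2 are in the rule, so their shares in members follow from the choice of cells. For Csta3, Mmp9, Il1b and Hdc, outside the rule, the shares in members were above those of both types that should lack them. The surfactant gene Sftpc was found in 24.6% of members, 17.9% of endothelial-rule and 8.11% of B-rule cells. All these shares are pooled over runs, which the cell types filled unequally. Run 1 held 225 members and 85 endothelial-rule cells, and run 7 held 28 and 184. S100a8 in endothelial-rule cells ranged from 0 CPM in runs 2 to 5 to 56.2 CPM in run 1. Sftpc in the same cells ranged from 18.6 CPM in run 5 to 7928 CPM in run 7, with 142 CPM in run 1. The pooled shares therefore do not give the background in the members' own runs, which was not tested. Before thinning, the median depth was 4719 UMIs in members, 2893 in the 528 endothelial-rule cells and 3676 in the 190 B-rule cells, and Csta3 had a UMI in 77.6%, Cxcr2 in 73.6% and Il1b in 92.3% of members.

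By the ratio of variance to mean over cells, the members of run 1 differed most in S100, stefin and Retnlg transcripts, apart from Sftpc. This ratio (Fano factor) tends to grow with the level of a gene, and S100a8 and S100a9 are genes of the rule. With 224 members thinned to 1500 UMIs, it was 44.9 for S100a9, 36.6 for S100a8, 29.5 for Retnlg, 25.9 for Cstdc5, 20.4 for Stfa1, 18.2 for Gm42418 and 12.5 for Cxcl2. Sftpc, at 263, rested on the 1 cell named before. Retnlg was close to present or absent: 113 members (29.8%, 25.3 to 34.7) had a UMI, 23.0% after thinning, and 1 member had 593. In all other cells 1.98% had one.

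That variation was followed along the S100a8 and S100a9 share, with totals that leave out these genes. This split was chosen after the data had been seen, and the share is a rule measure, so it is a description. Members with a share of at least 10% (128 cells, median 5828 UMIs) were set against members under 5% (159 cells without the surfactant cell, median 3932 UMIs). Of 6201 genes used, 166 (2.68%) were at least 2-fold higher at the high end and 850 (13.7%) at least 2-fold lower, with a median log2 ratio of -0.32. Centred on that median the counts were 353 and 465, so much of the excess of lower genes depends on the scale. The high end held 80 of its cells in run 1 and the low end 89.

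At the high end Retnlg was at 7326 against 198 CPM of the reduced total, a log2 ratio of 5.21, with 5.04 in run 1, 3.20 in run 6 and 5.33 without run 1. Across 4 steps of the share (1 to 2%, 2 to 5%, 5 to 10% and at least 10%) it stood at 101, 243, 2168 and 7326 CPM. Cstdc5 (log2 ratio 3.83), Stfa2 (3.82), Stfa1 (2.66), Stfa3 (2.28) and Stfa2l1 (2.27) were higher too, each also in run 1 and in run 6 taken alone, with 3.41, 3.21, 2.54, 1.42 and 2.36 without run 1. Prok2, a chemokine-like prokineticin, had a log2 ratio of 2.54 over all members and of 0.57 without run 1, and Lcn2 of 2.32 and 0.89, so both rested on run 1. The stefins and Retnlg did not.

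Lower at the high end were S100a4 (log2 ratio -4.08; without run 1 it had no UMI at the high end, which at 3 UMIs bounds it at -2.43), Crip1 (-3.30, and -2.64), Plac8 (-2.88, and -3.60), Ms4a6c (-2.75, and -2.24), Cd74, the MHC class II invariant chain (-2.63, and -5.19), and S100a10 (-2.37, and -4.48). Pid1 and Camk2d had log2 ratios of -2.84 and -2.20. Several of these genes are also high in monocytes, and S100a4 stood at 1536 CPM and Crip1 at 2473 CPM in the cells of the classical monocyte rule. Il1b was level, at 3613, 4140, 4185 and 3802 CPM over the 4 steps, and Csf3r at 996, 1067, 1212 and 1195 CPM. Csf3r is in the rule, so every level of it here is among cells that had to carry the receptors.

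**Figure D5:**
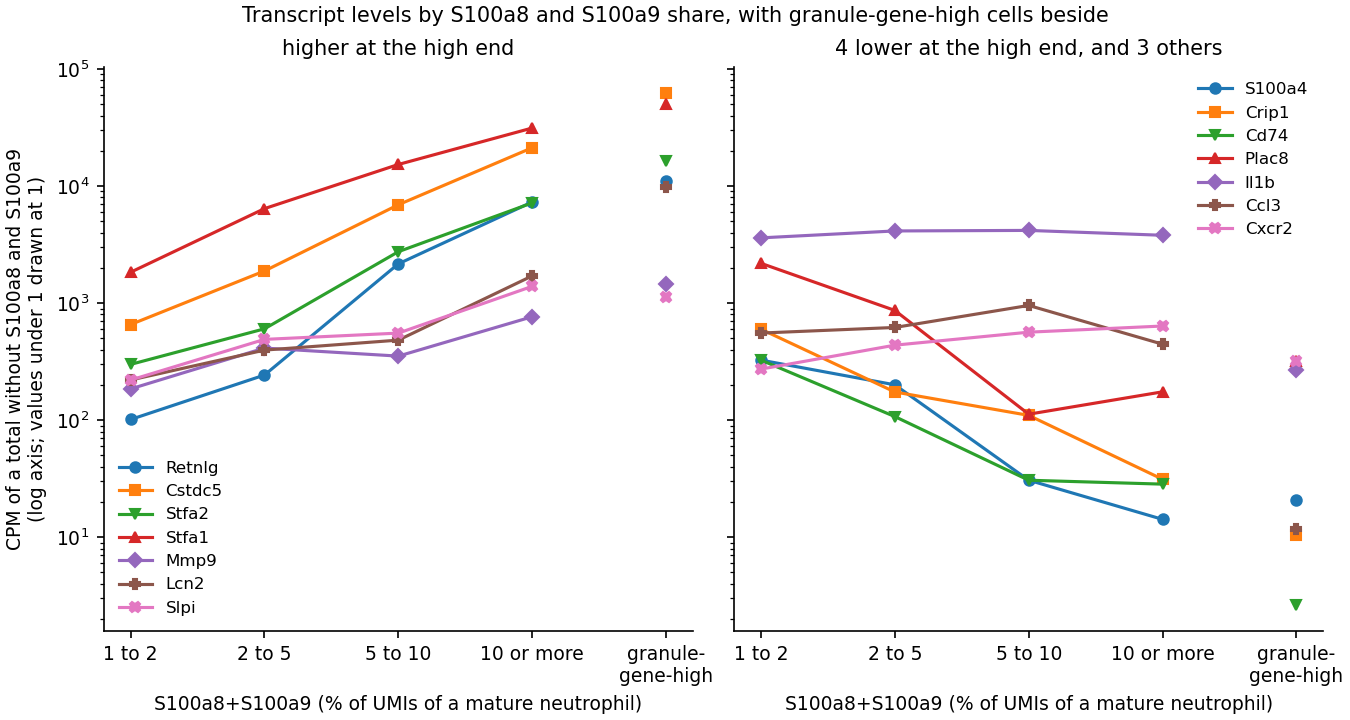
Lines give CPM (log axis, totals without S100a8 and S100a9) of named genes in mature neutrophils of 4 steps of S100a8 and S100a9 share, with the 98 granule-gene-high cells as separate points. Retnlg went from 101 to 7326 and S100a4 from 326 to 14.2, while Il1b lay between 3613 and 4185.

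A similar order followed the few granule UMIs that the rule allowed. Retnlg was at 1245, 6317 and 27497 CPM in members with 0, 1 to 3 and 4 to 9 UMIs of Ngp, Camp and Ltf (306, 67 and 6 cells, median 4580.5, 5142 and 8550 UMIs). Ly6g was at 5.81, 84.2 and 362 CPM and Prok2 at 42.0, 139 and 793 CPM in the same groups. Lpl was at 3.88, 57.7 and 293 CPM, but 41 of its UMIs lay in run 7 (513 CPM) and 2 and 1 in runs 1 and 6. Its ratio to all other cells moved from 18.0 to 127 times lower without run 7, and to 7.49 times lower without run 1. Without run 1 the Retnlg level of the first group was 9.62 times lower than that of the last, in place of 22.1 times, and no ratio could be formed for Ly6g. At the other end Tgm2 was at 450, 305 and 17.2 CPM, Apoe at 395, 248 and 17.2, Abtb2 at 319, 293 and 17.2, Irf2bp2 at 283, 180 and 17.2, and Ifi27l2a at 294, 257 and 17.2, where 17.2 CPM is a single UMI. The top group held 6 cells, 4 of run 1 and 2 of run 7, and its values describe those cells.

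The cells most like the members were 98 granule-gene-high cells, which met the S100a8 and S100a9 share but had at least 10 UMIs of Ngp, Camp and Ltf and, like the members, none of F13a1 and Cdh5. Their median depth was 7683.5 UMIs. Of 5670 genes used, 731 (12.9%) were at least 4-fold higher in mature neutrophils and 112 (1.98%) at least 4-fold lower, with a median log2 ratio of 0.87. Centred on the median, the counts were 284 and 270, so the direction of the excess depends on the scale. Ratios of single genes stand beside that median of 0.87. S100a8 was at 107546 CPM and S100a9 at 117652 CPM in granule-gene-high cells, against 52095 and 41389 CPM in members.

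Mature neutrophils exceeded granule-gene-high cells most in Csf1 (log2 ratio 6.05, and 4.72 without run 1), the epidermal growth factor receptor ligand Areg (6.03, and 1.75 without run 1), Lmna, lamin A (5.95, and 5.37 without run 1), Ccl3 (5.95, and 5.13 without run 1), Cd83 (5.89, with 4.78 without run 1 and 6.74 without run 6) and Trio (5.70, with 3.90 without run 1 and 5.08 without run 7). Each of these had 2 to 9 UMIs in all granule-gene-high cells, so the intervals are wide. As ratios they ran from 18.0 to 543 for Areg, 21.1 to 302 for Lmna, 16.2 to 491 for Cd83 and 14.2 to 431 for Trio. Areg rested on run 1, where it was at 183 CPM against 0, 54.2 and 0 CPM in runs 2, 6 and 7. Il1b was at 3574 against 208 CPM (log2 ratio 4.10) and Csf3r at 1023 against 192 CPM (2.41, and 3.43 without run 1). Csta3 and Asprv1 were at like levels, 1225 and 547 against 680 and 479 CPM, as was Mxd1, at 467 against 462 CPM. Csf3r is a receptor of the rule, which members had to carry and granule-gene-high cells did not. Csta3, Asprv1 and Mxd1 differed by 0.85, 0.19 and 0.02 on the log2 scale.

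Lower in mature neutrophils than in granule-gene-high cells were, by rule, Camp (log2 ratio -9.60), Ngp (-9.10) and Ltf (-8.95, and -9.87 without run 1). Outside the rule, Cpa6, a carboxypeptidase, had a log2 ratio of -6.68 (-7.89 without run 1), Ankrd22 of -5.46 (-4.57 without run 1) and Serpinb1a, an inhibitor of neutrophil elastase, of -5.45 (-4.47 without run 1 and -6.57 without run 7). Ly6g was at 32.2 against 381 CPM and had a UMI in 4.49% of members and 67.3% of granule-gene-high cells. Mmp8 and Mmp9 were at 250 and 457 against 1591 and 1127 CPM, Retnlg at 3042 against 8654 CPM, and Cybb at 194 against 1670 CPM. Lta4h, the hydrolase that makes leukotriene B4, was at 27.7 against 241 CPM. Outside the rule, the specific granule genes Olfm4 and Lcn2 were also lower in members, at 267 and 862 against 1489 and 7665 CPM.

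Against 834 cells of the classical monocyte rule (at least 1 UMI of F13a1 and 2 of Ly6c2 and Ccr2 together, none of Cdh5, fewer than 10 of Ngp, Camp and Ltf, and S100a8 and S100a9 under 1%), 265 of 6449 genes used (4.11%) were at least 4-fold higher in mature neutrophils and 365 (5.66%) at least 4-fold lower, with a median log2 ratio of -0.13. Retnlg (log2 ratio 11.67, 13.16 without run 1) had 6 UMIs in all 834 monocytes and Mmp9 (11.52, 9.76 without run 1) 1 UMI. Cstdc5 (9.92), Asprv1 (9.78, and 11.24 without run 7) and Ceacam10 (9.53, with 8.13 without run 1 and 7.47 without run 7) followed, as did Stfa2, at 3220 against 3.41 CPM. With 1 UMI on the monocyte side, the ratio of Mmp9 has a lower bound of 527 and that of Ceacam10 of 131. Cxcr2 was at 469 against 1.71 CPM and Csta3 at 1225 against 1.86 CPM.

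Monocyte-rule cells were higher by rule in F13a1 and in Ccr2, the receptor that brings monocytes from marrow to tissue. Ccr2 counts in that rule together with Ly6c2. It had a log2 ratio of -4.69 (-5.08 without run 1), at 28.7 against 741 CPM. Outside the rule, monocyte-rule cells were higher in C1qa (log2 ratio -6.46 on 3 UMIs in members, with -4.39 without run 1 and -5.59 without run 6), C1qb (-5.68, and -4.41 without run 1), the interferon-induced Ifi203 (-5.60, with -4.37 without run 1 and -8.17 without run 6) and Ms4a4c (-4.94, and -6.64 without run 1). Some transcripts often read as neutrophil activation were shared: Cebpb was at 2223 against 1797 CPM and Alox5ap, the partner of 5-lipoxygenase, at 1212 against 1162 CPM. Alox5 itself was at 125 against 8.07 CPM. Il1b and Cxcl2 were at 3574 and 4580 CPM in members and at 364 and 567 CPM in monocyte-rule cells, so both stood apart from this type as well.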

How the data were processed

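The authors deposited raw UMI counts per gene and cell (32285 genes, 11806 cells, 77020720 UMIs) from 10x Chromium 3' libraries. Cell Ranger 1.3.1 and the mm10 genome are named in the submitters' processing notes; whether strand or introns were used is not given in the sources used here. No column name gave its library, so no sample enters as a replicate, and comparisons between air and hyperoxia were not run.

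UMIs were summed over the cells of a set and divided by the set's total, giving CPM. Genes with at least 20 CPM on either side were used, and at least 4-fold was counted. Ratios carry exact conditional binomial intervals, shares exact Clopper-Pearson intervals, both at 95% and for counting error only; a sum of 0 was set to 3 UMIs. No p-value was computed, since members were chosen on the same counts. The members and the gene lists were chosen with earlier results of these data known. Named genes are those of the rule and markers, the 10 highest and 10 lowest ratios at 100 CPM, the 10 most abundant, up to 4 per list plus those a sentence on roles needs, 6 each way in the comparisons with granule-gene-high and monocyte-rule cells and along the granule gene groups, and 8 by Fano factor. The 8 highest and lowest along the S100 share were added after the data were seen. Doublets were scored per run with Scrublet (scanpy 1.11.5, 20 components, removing 0.8% per 1000 cells) and left out only in an alternative. The ratio calculation was tested on simulated data. Promoters came from RefSeq, and shared 50-base windows from GENCODE transcripts. Python 3.11.15, numpy 2.4.6, scipy 1.17.1, pandas 2.3.3 and matplotlib 3.10.9 were used. Values of some listed genes are not reported here, though list counts and medians include them.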

Additional observations from a re-analysis of the deposited data

How the results depend on the processing

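No paired analysis was possible because no cell could be assigned to a library and the results come from no test; hyperoxia against air and its alternatives were not run. The share of 3.21% was 3.69% with an S100a8 and S100a9 minimum of 0.5%, 2.75% with 2% and 1.85% with 5%, and 1.50 to 4.15% when each run was left out. Counts without a CPM filter, at 2-fold and at 8-fold were, against all other cells, 599, 660 and 101 higher and 2551, 1819 and 543 lower; against granule-gene-high cells 1600, 2507 and 244 higher and 172, 307 and 57 lower; against monocyte-rule cells 514, 666 and 133 higher and 1013, 1130 and 146 lower. A filter of 50 CPM gave 359 lower against all others, 333 higher and 71 lower against granule-gene-high cells, and 184 lower against monocyte-rule cells. Other cells with a Ptprc UMI gave 569 lower. Against granule-gene-high cells, the median of within-run ratios gave 426 higher, and centring 284 higher and 270 lower. Leaving out each run gave 208 to 296 higher and 840 to 979 lower against all others, 709 to 831 and 109 to 169 against granule-gene-high cells, and 243 to 321 and 349 to 393 against monocyte-rule cells. Along the granule gene groups, genes of at least 100 CPM in either end group were counted where these ends differed at least 4-fold, in either direction. They numbered 252, with 565 after thinning and 722 without run 1. The number of genes used was not kept, so no share stands beside these counts. The top group held 6 cells, and only 2 of them, in run 7, remained without run 1. These counts are therefore not read as a result. Along the S100 share, run 1 alone gave 257 higher and run 6 alone 776; without run 1 the counts were 479 and 1308, and centred 353 and 465. These S100 settings, centring and leaving out the surfactant cell were chosen after the data were seen. The sign turned for Camp (1.56), Ngp (2.36) and Ltf (2.51), on the log2 scale, against other cells without granule-gene-high cells, and for Sftpc (0.83) and Scgb1a1 (0.20) against other cells with a Ptprc UMI; the cause was not tested. Of 475 list medians, 464 moved by less than the limit set, and turns of sign were not recorded for lists. Of 3349 values of named genes, 923 moved by more, among them 104 of 134 as the median of within-run ratios and 87 of 133 without run 1. The number of members limits the 4 runs with fewer than 20, for which no levels are given.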

Other observations

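Cells that failed a single criterion differed in depth. The 52 cells that failed only through a UMI of F13a1 had a median of 14410 UMIs, against 4719 in members, and held Ly6c2 at 918 CPM and Cxcr2 at 57.9 CPM. The 58 cells that failed only on the receptors had a median of 2439.5 UMIs and held Csta3 at 776 CPM. The 5 cells that failed only through Cdh5 held Csta3 at 1364 CPM and S100a8 at 56890 CPM.

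Gm42418, a transcript that overlaps ribosomal RNA sequence, was at 8541, 12580, 60426 and 3717 CPM in the members of runs 1, 2, 6 and 7, highest in run 6.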
